A study of Saccharomyces cerevisiae W303 with 3 samples.

Results

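The peroxisome genes described here are the PEX genes, which encode the peroxins that build the peroxisome, together with the genes of peroxisome fission and inheritance, 3 transcription factors of peroxisomal genes, and a set of peroxisomal carriers and matrix enzymes outside the main steps of fatty acid oxidation. They were chosen by gene name among the probes of the array, by a rule that uses no measured value, though the list was proposed with earlier results of these data known: 36 genes carried such a name or one of the listed systematic names, and 8 more (PEX27, PEX28, PEX29, PEX30, PEX31, PEX32, INP1 and INP2) were on the array under their systematic names and were found through their RefSeq symbols. This gave 44 of the 6252 genes on the array, of which 42 were bright enough to test. PEX9 and PEX35 were not: their probes were above background on at most 2 of 6 arrays at either time point.

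Peroxisomes are single-membrane organelles in which yeast cells oxidize fatty acids and break down hydrogen peroxide. Their matrix proteins are made in the cytosol and carried in, fully folded, by soluble receptors that dock at the membrane, release their cargo and are then pulled back out with the help of ubiquitin and ATPases. The organelles multiply by growth and fission and are shared between mother and bud along actin. In baker's yeast they are few in glucose and multiply when cells are fed fatty acids such as oleate, through the Oaf1 and Pip2 transcription factors.

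The strain was haploid W303, wild type for this study, with mutant alleles of ADE2, HIS3, URA3, TRP1 and LEU2 that leave cells dependent on added nucleotides and amino acids, and one of CAN1 that gives resistance to canavanine. In each of 3 independent experiments, a population started from a single colony was kept at 30 °C in a small chemostat, a vessel with a steady inflow of fresh medium, on minimal medium with glycerol as the main carbon source, a little glucose and yeast extract, and antibiotics. Both groups carried all of these alleles and had the same medium. The earlier group is RNA of each population after 40 generations and the later group RNA of the same population after 240 generations. The study describes mutations that arose in the later populations, not the same in each, in genes such as HOG1, MSY1 and URE2; they were not analysed here, and the effects of time and of such mutations cannot be told apart. The RNA pairs of the 3 populations (Replicates 1, 2 and 3) were hybridized on 6 2-color arrays, 2 per population with the Cy3 and Cy5 dyes exchanged.

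Every value below is a log2 ratio of 240 over 40 generations unless it is called a level, so that a positive value means more RNA at 240 generations, and errors are SDs over the 3 populations. A gene was taken as higher or lower where its adjusted p, from limma with Benjamini-Hochberg adjustment over all 5504 genes tested, was at most 0.05. RNA was taken from whole populations, so that a lower level per cell and fewer cells expressing a gene cannot be told apart. The 6 arrays had 84.2% to 91.8% of genes above background at 40 generations and 85.3% to 89.4% at 240 generations, and no spot of a peroxisome gene had a saturated pixel. The 2 arrays of a population agreed closely across genes (r between 0.95 and 0.96), whereas across populations r was 0.71 (Replicates 1 and 2), 0.66 (1 and 3) and 0.88 (2 and 3). Over the 42 peroxisome genes the same 3 correlations were 0.69, 0.67 and 0.77, on genes that share the libraries.

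The methods name the strain as mating type a, and the markers of mating type went against this. Of 6 genes that a cells express, STE6 was above background on all arrays at both times, whereas MFA2 and AGA2, which encode a pheromone and an agglutinin subunit of a cells, were above background on none, and MFA1, BAR1 and STE2 on some. All 4 genes of alpha cells, MF(ALPHA)1, MF(ALPHA)2, STE3 and SAG1, were above background on all 6 arrays at both times, and all but MF(ALPHA)1 were higher at 240 generations. The log2 of the summed level of the 4 alpha genes ran from 12.50 to 12.62 at 40 generations and from 13.08 to 13.43 at 240 generations, and that of the 6 a genes from 10.83 to 11.12 and from 10.61 to 10.84. The part of mating type in the results below was not tested.

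Of the 42 peroxisome genes tested, 10 passed: 7 were higher and 3 were lower at 240 generations. LPX1 (a lipase of the peroxisomal matrix), IDP3 (the peroxisomal NADP-dependent isocitrate dehydrogenase), PEX34 (a membrane protein that works with the Pex11 family), PEX13 (a subunit of the import docking complex), DNM1 (a dynamin that cuts peroxisomes and mitochondria), PEX19 (the carrier of peroxisomal membrane proteins) and PCD1 (a peroxisomal pyrophosphatase of coenzyme A) rose, and OAF1 and OAF3 (transcription factors) and PEX8 (an import component on the inner face of the membrane) fell. These 10 make up 23.8% of the 42, beside 27.7% of all 5504 genes tested. The 7 that rose were 16.7% of the peroxisome genes, beside 14.0% of all genes. The 3 that fell were 7.14%, beside 13.7% of all genes. The share of peroxisome genes called was thus close to that of all genes, and it is not by itself a result about the peroxisome. Without Replicate 2, 0 peroxisome genes passed in limma (5.21% of all genes) and 10 had an unadjusted p of at most 0.05, and with the time points of a population not paired the counts were 0 and 8 (7.83% of all genes passed). Without Replicate 3, 4 passed (OAF1, PEX28, IDP3 and LPX1; 12.1% of all genes), and without Replicate 1, 16 passed (45% of all genes). IDP3 passed the filter on dim probes only through the later time point; with the filter set to both time points on all arrays it was not tested, and 8 of 40 genes passed (27.6% of all genes).

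**Figure D1:**
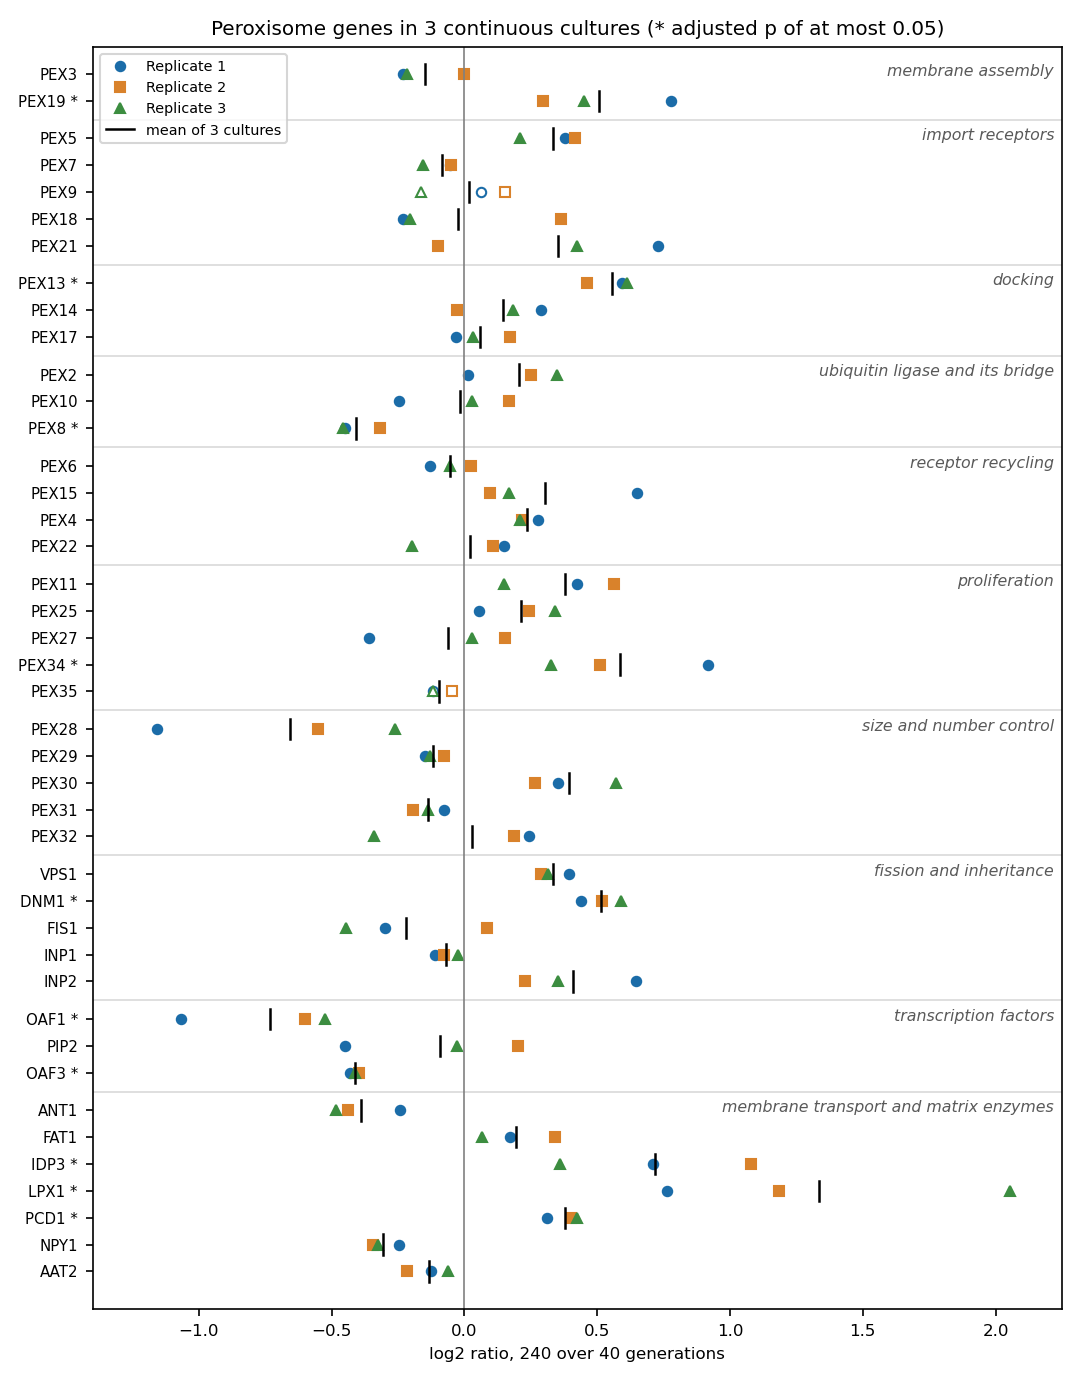
Log2 ratios of 240 over 40 generations (horizontal axis) of 42 of the 44 peroxisome genes, grouped by role, in Replicate 1 (circles), Replicate 2 (squares) and Replicate 3 (triangles), with the mean of the 3 as a vertical bar. Open symbols are the 2 genes too dim to test, and a star marks the 10 genes with an adjusted p of at most 0.05. By the mean, LPX1 stands farthest to the right and OAF1 farthest to the left, while the leftmost single symbol is PEX28 in Replicate 1.

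The changes were about as large as those of all genes: the median absolute log2 ratio was 0.27, beside 0.29. LPX1 alone changed at least 2-fold on average, 1 gene of 42 beside 300 of 5504, and the median over the 42 genes was 0.04, with quartiles of -0.13 and 0.36, beside a median of -0.01 and quartiles of -0.30 and 0.27 over all genes tested. The peroxisome genes had medians of -0.0082, 0.17 and 0.03 within the single populations. The 95% interval of the mean lay wholly within a 2-fold change for 38 of the 42 genes, and for 26 of the 27 PEX genes tested, beside 4550 of all 5504 genes tested (82.7%). The 4 genes whose interval reached beyond 2-fold were OAF1, PEX28, IDP3 and LPX1.

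Ratios of one sign on all 6 arrays were found for 23 of the 42 genes (54.8%), beside 53.6% of all genes. At an unadjusted limma p of at most 0.05 there were 18 (42.9%), beside 43.5% of all genes. The probes of the peroxisome genes had a median log2 intensity of 10.40, beside 9.98 over all genes tested. All 10 calls fell among the 34 tested genes of the literal name list, and 0 of the 8 genes found by RefSeq symbol passed in limma, of which 3 (PEX28, PEX30 and INP2) had an unadjusted p of at most 0.05. Over all genes tested 27.7% passed, and the difference between these groups of names was not tested.

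**Figure D2:**
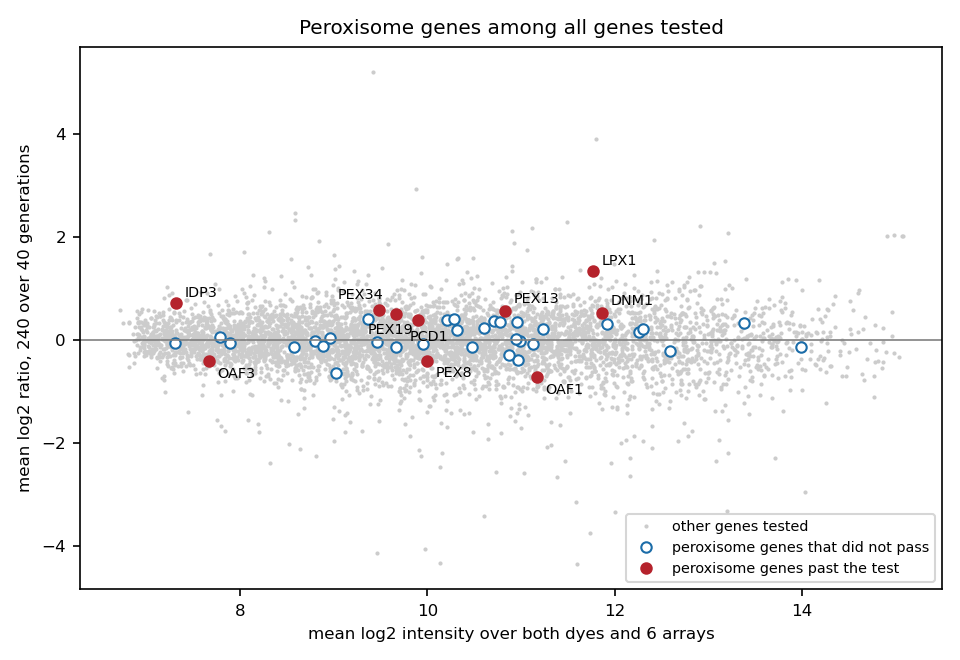
Mean log2 ratio of 240 over 40 generations (vertical axis) against mean log2 intensity over both dyes and the 6 arrays (horizontal axis) for all 5504 genes tested (gray), the peroxisome genes that passed the test (filled, named) and the 32 that did not (open). The peroxisome genes spread over the range of intensity and, LPX1 apart, lie within 1 log2 unit of 0.

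Membrane assembly rests on Pex19, which binds new membrane proteins in the cytosol, and Pex3, the membrane protein that receives it. PEX19 had ratios of 0.78, 0.30 and 0.45 in Replicates 1, 2 and 3, and its single arrays ran from 0.24 to 0.80. Its normalized log2 levels were 9.45, 9.76 and 9.04 at 40 generations and 10.23, 10.05 and 9.49 at 240 generations. The levels of the 2 time points overlapped between populations, since the earlier sample of Replicate 2 was above the later one of Replicate 3, but each population rose. The mean was 0.51 ± 0.25 (SD, n = 3, 95% interval 0.18 to 0.84, adjusted p = 0.041), a 1.42-fold rise. PEX3 had -0.23, -0.0032 and -0.22, with a mean of -0.15 (adjusted p = 0.35).

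Of the 4 import receptors tested, none passed in limma, and PEX5 alone had an unadjusted p of at most 0.05. PEX5, whose product binds the C-terminal targeting signal of most matrix enzymes, had 0.38, 0.42 and 0.21, a mean of 0.34 (adjusted p = 0.072). PEX7, the receptor of the N-terminal signal, had a mean of -0.09 with populations between -0.16 and -0.05. PEX18 and PEX21 encode the interchangeable co-receptors that Pex7 needs. PEX21 had 0.73, -0.10 and 0.42, with single arrays from -0.29 to 0.90, levels of 10.47, 11.00 and 10.34 at 40 generations and of 11.20, 10.90 and 10.76 at 240 generations. It was higher in Replicates 1 and 3 and not in Replicate 2, and its mean of 0.35 ± 0.42 (95% interval -0.09 to 0.79) did not pass (adjusted p = 0.18). PEX18 had -0.23, 0.36 and -0.20, the opposite sign of PEX21 in every population, and a mean of -0.02 (adjusted p = 0.92). PEX9, a second receptor of the C-terminal signal, had untested ratios of 0.06, 0.15 and -0.16 on a probe not well above background.

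The docking complex, where loaded receptors meet the membrane, consists of Pex13, Pex14 and Pex17. PEX13 had 0.59, 0.46 and 0.61 in the 3 populations and 0.42 to 0.69 on the 6 arrays, so that no array was near 0. Its levels were 10.86, 10.71 and 10.08 at 40 generations and 11.46, 11.17 and 10.69 at 240 generations. The mean of 0.56 ± 0.08 (95% interval 0.29 to 0.82, adjusted p = 0.019) is a 1.47-fold rise. PEX14, whose product is the receptors' first contact, had a mean of 0.15 with populations between -0.03 and 0.29. PEX17, a partner of Pex14, had a mean of 0.06 with populations between -0.03 and 0.17.

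Pex8 sits on the inner face of the membrane and joins the docking complex to the ubiquitin ligase, with Pex2 and Pex10 among its subunits, which marks receptors for return to the cytosol. PEX8 had -0.45, -0.32 and -0.46, and its 6 arrays ran from -0.49 to -0.24. Its levels were 9.99, 10.10 and 10.51 at 40 generations and 9.55, 9.79 and 10.05 at 240 generations. The populations differed in level by about as much as each fell, and the mean of -0.41 ± 0.08 (95% interval -0.67 to -0.14, adjusted p = 0.042) is a level 1.33-fold higher at 40 generations. In a fit of the 6 arrays with a dye term and the population as a random block it did not pass (adjusted p = 0.057). PEX2 and PEX10 did not pass. PEX2 had a mean of 0.21 with populations between 0.014 and 0.35. PEX10 had a mean of -0.02 with populations between -0.25 and 0.17.

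None of the 5 genes of receptor recycling passed in limma, and none had an unadjusted p of at most 0.05. Pex4 is the ubiquitin-conjugating enzyme of the receptors and Pex22 its membrane anchor, while Pex6 is an ATPase that extracts them and Pex15 holds it at the membrane. PEX6 had a mean of -0.05 with populations between -0.13 and 0.02. PEX15 had 0.65, 0.10 and 0.17, a mean of 0.31 (adjusted p = 0.17) in which Replicate 1 stood above the others. PEX4 had 0.28, 0.22 and 0.21, a mean of 0.23 (adjusted p = 0.14). PEX22 had a mean of 0.02 with populations between -0.20 and 0.15.

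Peroxisomes are elongated before they divide by Pex11, with Pex25 and Pex27 as relatives and Pex34 as a partner of all of them. PEX34 had 0.92, 0.51 and 0.33, in that order highest in Replicate 1, and 0.31 to 0.94 on the arrays. Its levels were 9.43, 8.90 and 9.26 at 40 generations and 10.35, 9.41 and 9.59 at 240 generations. The later sample of Replicate 2 was thus just below the earlier one of Replicate 1, so that the time points separate only within a population. The mean was 0.58 ± 0.30 (95% interval 0.22 to 0.95, adjusted p = 0.036), a 1.50-fold rise. PEX11 had 0.42, 0.56 and 0.15, a mean of 0.38 that did not pass (adjusted p = 0.074). PEX25 had a mean of 0.21 with populations between 0.05 and 0.34, and its arrays averaged 0.04 with the later sample in Cy5 and 0.39 with it in Cy3. PEX27 had a mean of -0.06 with populations between -0.36 and 0.15. PEX35, which affects peroxisome number, had untested ratios of -0.12, -0.05 and -0.12 on a probe not well above background, and the deposited log2 ratios of the same gene averaged 0.31.

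Pex28 to Pex32 are membrane proteins that set the size, number and spacing of peroxisomes, with Pex30 and Pex31 in the endoplasmic reticulum. PEX28 had -1.16, -0.55 and -0.26, and its 6 arrays ran from -1.21 to -0.21. Its levels were 9.39, 9.42 and 9.25 at 40 generations and 8.23, 8.87 and 8.99 at 240 generations, so that every earlier sample was above every later one. The mean of -0.66 ± 0.46 (95% interval -1.12 to -0.19) was the lowest of any PEX gene tested. It missed the threshold (adjusted p = 0.0503) and passed in 8 of 19 alternative fits. PEX30 had 0.35, 0.26 and 0.57, a mean of 0.40 that did not pass either (adjusted p = 0.056). PEX29 had a mean of -0.12 with populations between -0.15 and -0.08. PEX31 had a mean of -0.14 with populations between -0.19 and -0.08. PEX32 had 0.24, 0.19 and -0.34, with Replicate 3 apart in sign, and a mean of 0.03.

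Fission needs the dynamins Vps1 and Dnm1, the latter recruited by Fis1. DNM1 had 0.44, 0.52 and 0.59 in the 3 populations and 0.41 to 0.74 on the arrays. Its levels were 11.83, 11.79 and 11.20 at 40 generations and 12.27, 12.31 and 11.79 at 240 generations. Replicate 3 was the lowest population at both times, its later level close to the earlier ones of the others, while its ratio was the highest of the 3. The mean of 0.52 ± 0.07 (95% interval 0.25 to 0.78, adjusted p = 0.023) is a 1.43-fold rise. VPS1, the dynamin that does most peroxisome fission, had 0.39, 0.29 and 0.32, a mean of 0.33 that did not pass (adjusted p = 0.066). FIS1 had -0.30, 0.08 and -0.45, a mean of -0.22 (adjusted p = 0.27). Inheritance is balanced by Inp1, which holds peroxisomes in the mother cell, and Inp2, which ties them to the myosin Myo2 for transport to the bud. INP2 had 0.64, 0.23 and 0.35, a mean of 0.41 (adjusted p = 0.063). INP1 had a mean of -0.07 with populations between -0.11 and -0.02.

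Oaf1 and Pip2 form the pair of zinc cluster factors that switches on peroxisomal genes in oleate, with Oaf1 as the fatty acid sensor, and Oaf3 is a repressor of oleate genes. OAF1 had -1.07, -0.60 and -0.53, and its arrays ran from -1.14 to -0.43. Its levels were 11.50, 11.40 and 11.70 at 40 generations and 10.44, 10.80 and 11.17 at 240 generations, every later sample below every earlier one. The mean was -0.73 ± 0.29 (95% interval -1.09 to -0.37, adjusted p = 0.020), a level 1.66-fold higher at 40 generations, and the lowest of the 42 peroxisome genes tested. OAF3 had -0.43, -0.40 and -0.41, the closest agreement of the 10 genes that passed, and -0.62 to -0.21 on single arrays. Its levels were 7.93, 7.94 and 7.74 at 40 generations and 7.50, 7.55 and 7.33 at 240 generations, on a dim probe, with no overlap between the time points. The mean of -0.41 ± 0.02 (95% interval -0.67 to -0.15, adjusted p = 0.037) is a level 1.33-fold higher at 40 generations, and it was -0.68 with plain background subtraction and -0.65 with the deposited log2 ratios. The call was lost when the 6 arrays were fitted with a dye term and the population as a random block (adjusted p = 0.21). PIP2 had -0.45, 0.20 and -0.03, a mean of -0.09 with populations of both signs (adjusted p = 0.68).

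Of the 7 carriers and matrix enzymes tested, 3 rose (LPX1, IDP3 and PCD1), beside 14.0% of all genes tested. LPX1 encodes a triacylglycerol lipase of the matrix. It had 0.76, 1.18 and 2.05 in Replicates 1, 2 and 3, and 0.67 to 2.12 on the arrays. Its levels were 11.63, 11.50 and 10.18 at 40 generations and 12.39, 12.68 and 12.23 at 240 generations, so that every later sample was above every earlier one. The large ratio of Replicate 3 went with a low level at 40 generations, while the later levels of the 3 populations were close. The mean of 1.33 ± 0.66 (95% interval 0.72 to 1.95, adjusted p = 0.017) is a 2.52-fold rise. The SD of LPX1 was at percentile 96.6 of all genes tested, and its Replicate 3 ratio was 1.08 above the mean of the other populations, the one case of a 2-fold departure among the peroxisome genes. Without Replicate 3 the mean of LPX1 was 0.97, and without Replicate 2 it was 1.41 and did not pass (adjusted p = 0.065).

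IDP3 supplies NADPH inside the peroxisome for the breakdown of unsaturated fatty acids. It had 0.71, 1.08 and 0.36 in the 3 populations and 0.26 to 1.15 on the arrays. Its levels were 7.14, 6.76 and 7.00 at 40 generations and 7.85, 7.84 and 7.36 at 240 generations, with no overlap between the time points. The probe was dim: it was above background on all 6 arrays at 240 generations but on 3 of 6 at 40 generations, those with the earlier sample in Cy3, so that it entered the test through the time point where it is higher. The mean was 0.72 ± 0.36 (95% interval 0.32 to 1.12, adjusted p = 0.027), and it was 1.36 with plain background subtraction and 1.39 with the deposited log2 ratios. Without Replicate 2 it was 0.53 and did not pass (adjusted p = 0.16).

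PCD1, which hydrolyzes coenzyme A, had 0.31, 0.40 and 0.42 in the 3 populations and 0.24 to 0.45 on the arrays. Its levels were 9.76, 9.58 and 9.79 at 40 generations and 10.07, 9.98 and 10.21 at 240 generations, with every later sample above every earlier one. The mean of 0.38 ± 0.06 (95% interval 0.11 to 0.64, adjusted p = 0.048) is a 1.30-fold rise. It was the call nearest the threshold and passed in 5 of 19 alternative fits, not in the fit of 6 arrays with a dye term (adjusted p = 0.054). ANT1, the adenine nucleotide carrier of the peroxisomal membrane, had -0.24, -0.44 and -0.48, a mean of -0.39 that did not pass (adjusted p = 0.053). NPY1, an NADH pyrophosphatase, had -0.25, -0.35 and -0.33, a mean of -0.31 (adjusted p = 0.080). FAT1, a fatty acid transporter and very long chain acyl-CoA synthetase, had a mean of 0.19 with populations between 0.07 and 0.34. AAT2, an aspartate aminotransferase that moves into peroxisomes in oleate, had a mean of -0.13 with populations between -0.22 and -0.06.

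**Figure D3:**
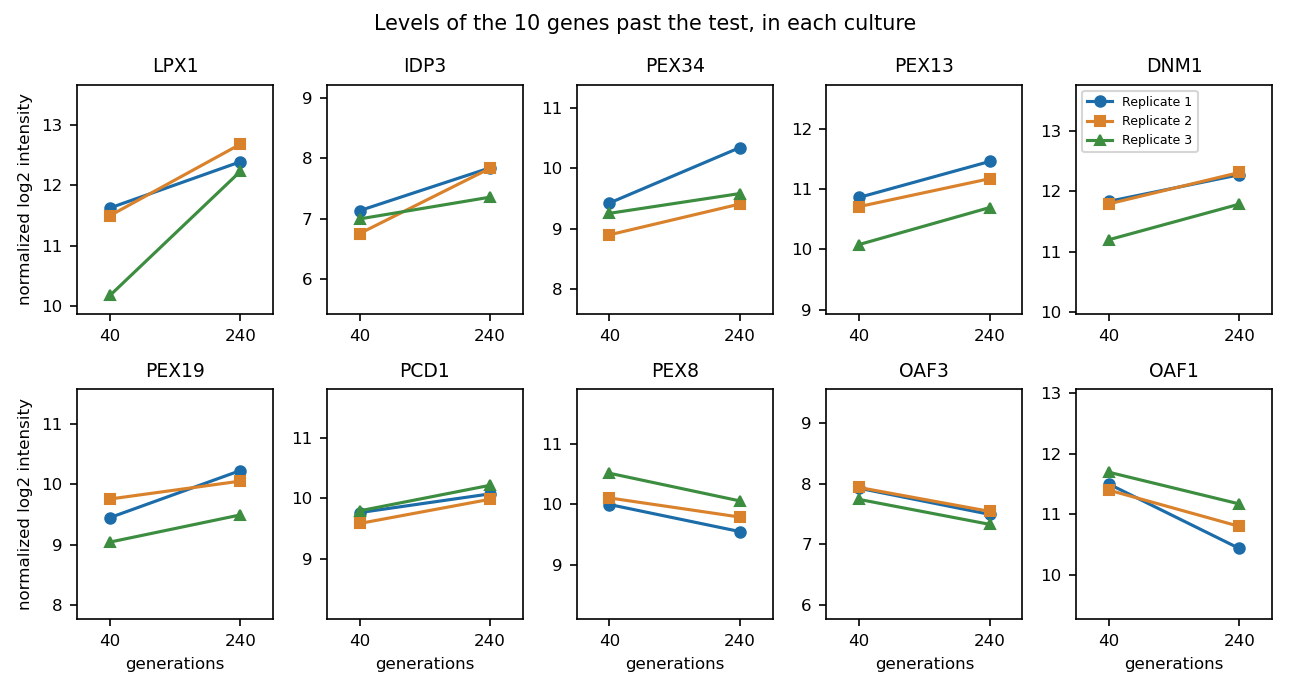
Normalized log2 intensity at 40 and at 240 generations (horizontal axis) of the 10 peroxisome genes that passed the test, with a line per population (circles Replicate 1, squares Replicate 2, triangles Replicate 3); each panel spans the same number of log2 units around its own middle, and heights are not to be compared between genes. All 3 lines rise for the 7 genes from LPX1 to PCD1 and fall for PEX8, OAF3 and OAF1, and for LPX1 the line of Replicate 3 starts lowest, at 10.18.

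By role, the 27 PEX genes tested held 3 that rose and 1 that fell, with a median of 0.06, and the 15 genes that are not PEX genes held 4 that rose and 2 that fell, with a median of -0.07; over all genes tested 14.0% rose and 13.7% fell. The 3 transcription factor genes had a median of -0.41 and none had a positive mean. The 5 genes of size and number control had a median of -0.12, and the 4 genes of proliferation tested a median of 0.30. With 2 to 7 genes in a role, these medians are descriptions. The calls were spread over 7 of the 10 roles, and the import receptors, the recycling genes and the genes of size and number control had none in limma, with 1, 0 and 2 genes at an unadjusted p of at most 0.05.

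Several of these genes are copies or close relatives of each other, and the relatives often had unlike ratios. OAF1 was below PIP2 in every population, by differences in log2 ratio of -0.62, -0.80 and -0.50 (mean -0.64 ± 0.15). PEX30 was above its relative PEX31 in every population, by 0.43, 0.46 and 0.71 (mean 0.53 ± 0.15), and above PEX32 by 0.11, 0.08 and 0.91. PEX28 was below PEX29 in every population, by differences of -1.01, -0.47 and -0.13. PEX25 was above PEX27 in every population, by 0.41, 0.09 and 0.31. The co-receptors PEX18 and PEX21 had differences of both signs, -0.96, 0.46 and -0.63, so that no order held. These differences are descriptions and were not tested; an exact two-sided permutation test over 3 populations could not give a p below 0.25.

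**Figure D4:**
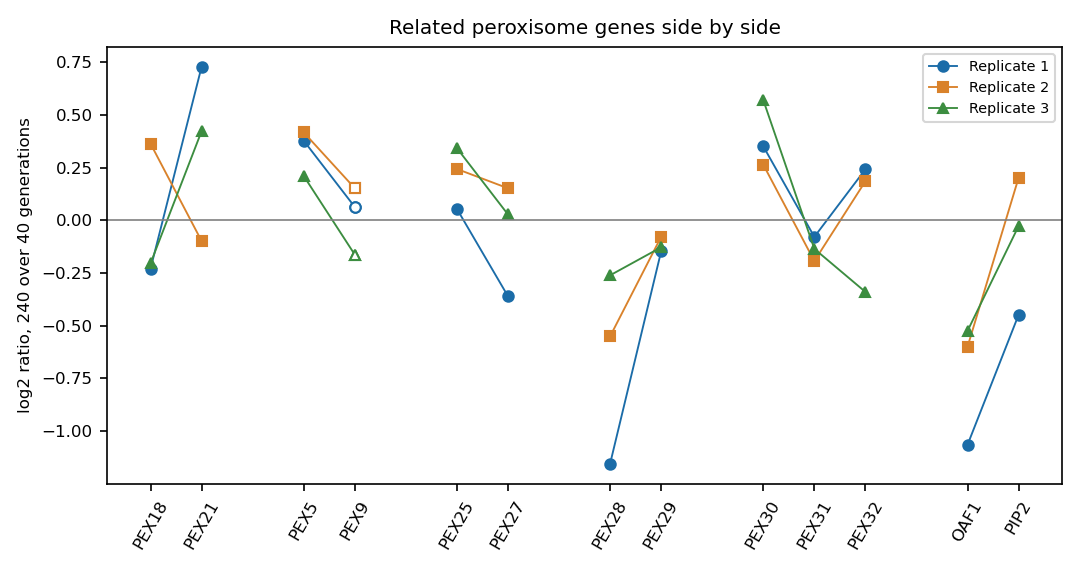
Log2 ratios of 240 over 40 generations (vertical axis) of related peroxisome genes set side by side, with a line per population joining relatives; open symbols are PEX9, which was too dim to test. The 3 lines fall together from PEX30 to PEX31 and rise together from OAF1 to PIP2, and those of PEX18 and PEX21 cross.

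Populations differed in part by gene length. In Replicate 1, the departure of a gene's ratio from the mean of the other populations fell with its coding length (Spearman's rho -0.37 over 5347 genes, -0.26 over the 42 peroxisome genes), and in Replicate 3 it rose (0.43 and 0.35), while Replicate 2 had 0.09 in both. These are correlations across genes of the same libraries, given as descriptions. Each departure is taken from the other populations, so that the correlations of the populations are not independent of each other. With the trend on coding length taken out of each population, 12 of 42 peroxisome genes passed, 8 of the 10 among them, beside 31.7% of all genes in that fit. The calls of OAF3 (adjusted p = 0.064) and PCD1 (0.052) were lost, and PEX28, VPS1, PEX30 and ANT1 were gained. Between dye orientations, the means of 6 of the 44 genes had opposite signs (PEX9, PEX10, PEX17, PEX18, PEX22 and PEX32), all of them genes that did not pass or were not tested.

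The study selected genes whose absolute mean reached 0.9 with a p up to 0.05, provided that the SD did not exceed 0.8 and its ratio to the square of the mean did not exceed 0.4. By these 4 criteria, with limma's p, LPX1 was the one peroxisome gene selected (2.38% of 42, beside 5.74% of all genes tested). With plain background subtraction or the deposited log2 ratios, 2 were selected, LPX1 and IDP3.

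The enzymes and carriers of fatty acid entry and oxidation, with the peroxisomal catalase, are a separate list, called oxidation enzymes below. Of 13 such genes outside the set, 11 were higher, beside 14.0% of all genes tested, none was lower in limma and 2 did not pass. Their median was 0.87, and 11 had an unadjusted p of at most 0.05. The 2 that did not pass were POT1 (-0.34, 0.57 and 0.08, adjusted p = 0.70) and FAA1 (mean -0.13, adjusted p = 0.50). POT1 encodes the thiolase of the last step of oxidation. POX1, which encodes acyl-CoA oxidase, had 1.85, 2.49 and 2.26, a mean of 2.20 ± 0.33 (adjusted p = 0.0016). FOX2, whose product carries out the hydration and the second oxidation, had 1.44, 1.83 and 1.49, a mean of 1.58 ± 0.21 (adjusted p = 0.0025). CTA1, the peroxisomal catalase, had 1.39, 1.29 and 0.97, a mean of 1.22 ± 0.22 (adjusted p = 0.0047). FAA2, a peroxisomal acyl-CoA synthetase, had 0.96, 1.35 and 1.04, a mean of 1.12 ± 0.20 (adjusted p = 0.0051). These 4 are named because their means were the largest of the list. All 4 lay above every PEX gene in all 3 populations, the highest PEX value being the 0.92 of PEX34 in Replicate 1. This did not hold for the whole list. TES1 (0.50), PXA2 (0.49), FAA4 (0.43), POT1 (0.10) and FAA1 (-0.13) had means below the 0.58 of PEX34, and the rest had means above it.

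A second list, called partners here, held partners of the fission, inheritance and membrane genes, genes of peroxisome autophagy, and regulators such as ADR1 and MGA2. The fission and inheritance partners in it, MDV1, CAF4 and MYO2, did not pass. Of these 15 genes outside the set, none was higher in limma, 5 were lower and 10 did not pass. Over all genes tested, 14.0% were higher and 13.7% were lower. The partners had a median of -0.22, and 7 had an unadjusted p of at most 0.05, beside 43.5% of all genes. RTN2, a reticulon that shapes the endoplasmic reticulum, had -2.86, -0.96 and -1.35, a mean of -1.72 ± 1.01 (adjusted p = 0.023). ATG36, the receptor that marks peroxisomes for autophagy, had -1.73, -0.71 and -1.08, a mean of -1.17 ± 0.51 (adjusted p = 0.015). ATG1, the kinase that starts autophagy, had -1.48, -0.78 and -0.63, a mean of -0.96 ± 0.45 (adjusted p = 0.019). RTN1, the main reticulon, had -1.14, -0.72 and -0.90, a mean of -0.92 ± 0.21 (adjusted p = 0.0087). The other listed genes of peroxisome autophagy did not pass: ATG11 had a mean of -0.22 (adjusted p = 0.18) and HRR25 of 0.15 (adjusted p = 0.37). Nor did the other listed genes of the endoplasmic reticulum membrane, YOP1 (mean -0.18, adjusted p = 0.24) and SEY1 (mean -0.02, adjusted p = 0.91). In RTN2, ATG36, ATG1 and RTN1 the fall was largest in Replicate 1, as it was in OAF1 and PEX28, whereas in MGA2 and PEX8 it was largest in Replicate 3. MGA2, an activator of the fatty acid desaturase gene, was the last of the 5 that fell, with a mean of -0.53 (adjusted p = 0.023), and ADR1, an activator of oleate genes beside Oaf1 and Pip2, had -1.15, -0.41 and -0.28 and did not pass (mean -0.61, adjusted p = 0.063). MDV1, the adaptor between Fis1 and Dnm1, had -0.40, -0.27 and -0.41 and did not pass (adjusted p = 0.057). MYO2, the motor that Inp2 binds, had a mean of 0.13 and did not pass (adjusted p = 0.41). Both lists were chosen with results of these data known, and the differences between lists were not tested.

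**Figure D5:**
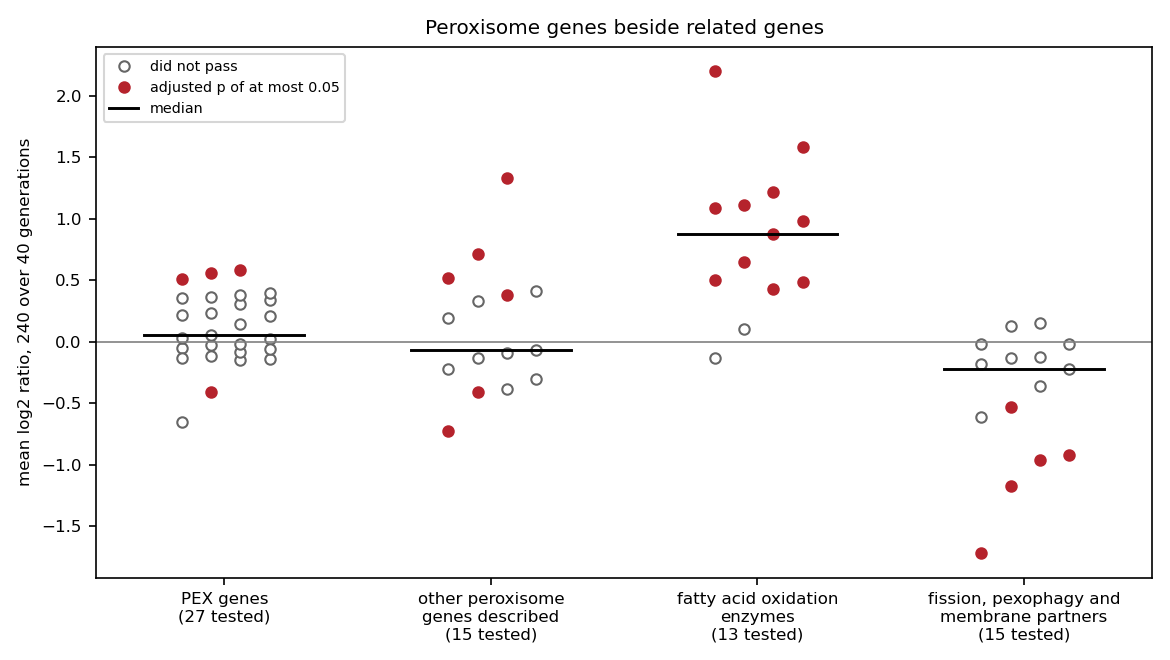
Mean log2 ratio of 240 over 40 generations (vertical axis) of the 27 PEX genes tested, the 15 other peroxisome genes described, 13 enzymes and carriers of fatty acid entry and oxidation and 15 genes of the partner list. Filled points passed the test and bars are medians. The medians are 0.06, -0.07, 0.87 and -0.22.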

How the data were processed

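The authors read the arrays with GenePix Pro and deposited, without normalization, the median and mean pixel intensity of each spot and its local background in Cy5 and Cy3. A flag and the percent of saturated pixels per spot were deposited too. The authors' log2 ratios came from Acuity, with 1 value per culture and a normalization not given in the sources used here; they served as an alternative, with values of exactly 0 taken as missing. The dye of each time point was read from the deposited array names.

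In R 4.3.3 with limma 3.58.1, background was corrected on the medians (normexp, offset 50), a loess curve was fitted within each array with control spots at weight 0, and the 2 spots of a gene and the 2 arrays of a culture were averaged. lmFit and eBayes then tested whether the mean of the 3 cultures differed from 0. Each has 1 RNA pair, so that p-values rest on the spread between these cultures, and their number limits the precision. The variance of each gene was moderated by eBayes toward that of all genes tested, with 3.70 prior degrees of freedom. P-values and intervals thus do not measure a gene's own spread alone. A gene was tested if its spots exceeded the background by over 2 background SDs at one time point on at least 4 of 6 arrays. Levels are single-channel log2 intensities after Aquantile normalization, and intervals are limma's 95% intervals.

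Symbols and coding lengths came from the RefSeq annotation of strain S288C, which had 5753 of 6252 genes. By RefSeq coordinates, none of the 44 genes overlapped another RefSeq gene, which leaves out array genes without a RefSeq entry. Sequences were not used here. Of the 44 members, 42 are named and 2 are not reported here by name, though counts and medians include them. Full statistics are given for those past the threshold or with an absolute mean of at least 0.5, and for the largest mean in a role with neither. The members, lists and rules were chosen with earlier results of these data known. Alternatives varied the background, pixel summary, normalization, filter, dyes, prior, pairing, replicates, source of the log2 ratios and length trend.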

Additional observations from a re-analysis of the deposited data

How the results depend on the processing

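No peroxisome gene given with full statistics changed its direction in any of 19 alternative fits, 2 of which use the same values (the deposited log2 ratios and the series table), and the median of the 42 genes stayed between -0.01 and 0.13. The number of genes past the threshold was less stable. With no replicate block, that is, with the time points of a population not paired, 0 peroxisome genes passed in limma (0 higher, 0 lower). At an unadjusted p of at most 0.05 there were 8. In that fit 6 oxidation enzymes and 2 partners passed (11 and 5 with pairing), and the share over all genes fell from 27.7% to 7.83%. Both time points of a population share each array. In the fit with a dye term, limma's consensus correlation between the 2 arrays of a population was 0.95. Leaving out a population gave 0 to 16 peroxisome genes (0 to 10 higher, 0 to 6 lower), 4 to 11 oxidation enzymes and 3 to 7 partners: without Replicate 2, 0 passed (5.21% of all genes; 10 at an unadjusted p of at most 0.05), without Replicate 3, 4 passed, 2 of them higher (12.1% of all genes), and without Replicate 1, 16 passed (45% of all genes). Each such fit has 2 populations. With a dye term and the population as a random block, 11 peroxisome genes passed (32.3% of all genes), 7 of the 10 among them, and OAF3, PEX8 and PCD1 did not. With median centring, 6 peroxisome genes were lower at 240 generations. In that fit 29.8% of all genes passed in either direction, and the median of all genes was -0.07, beside -0.01 in the main fit. With only the arrays that had the later sample in Cy5, 5 peroxisome genes were lower (31% of all genes passed in either direction). The count by the study's criteria was 2 with plain background subtraction and 2 with the deposited log2 ratios. LPX1 and OAF1 passed in 17 alternatives each, PEX13, PEX34 and DNM1 in 16, IDP3 in 16 of the 18 that tested it, OAF3 in 13, PEX19 in 12 and PEX8 in 11. Beyond the altered fits themselves, the cause of these changes was not tested.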
